A study of Mus musculus with 6 samples.

Results

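Pericytes and vascular smooth muscle cells are the mural cells of blood vessels, and 9 genes commonly used to mark them were followed here in cells sorted from the neonatal mouse cerebellum. They are Pdgfrb, Rgs5, Kcnj8, Abcc9, Anpep and Vtn, which mark pericytes in the brain, and Acta2, Tagln and Myh11, which belong to the contractile machinery of smooth muscle. They were chosen by name, as the probes that are not controls and carry one of these gene names. This gave 9 probes, 1 per gene, of 55681 probes and 34836 gene names on the array, of which 22374 are also gene names in the RefSeq table.

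The samples came from wild-type mice of the strain CD1, labeled as postnatal days 1 to 3, whereas the study's methods name C57BL/6 mice and give days 0 and 1 for the arrays. Pooled cerebella of either sex were dissociated, and 2 fractions of glial precursors were separated with magnetic beads, each in 3 samples of 50000 cells with 1 array per sample. A+/G+ cells (ACSA-2 positive/GLAST positive) were taken on 1 column with beads against ACSA-2, a surface antigen carried by the protein of Atp1b2. A-/G+ cells (ACSA-2 negative/GLAST positive) were first cleared of cells carrying L1CAM, ACSA-2, CD45, PSA-NCAM or Ter119, and then selected for GLAST, the glutamate transporter of Slc1a3. No antigen of mural or endothelial cells was used to deplete such cells in either sort. Both fractions were selected for a glial antigen, so cells without ACSA-2 or GLAST were meant to be left out. The study describes both fractions as enriched, and cells of other types could remain in either. In RNA of sorted cells, fewer cells of a type and less RNA per cell cannot be told apart.

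As background, pericytes lie in the basement membrane of capillaries and smooth muscle cells wrap arterioles. In the developing brain, endothelial cells release PDGF-B, which holds pericytes at the vessel wall through the receptor Pdgfrb, and the dense coverage reached in this way is needed to form the blood-brain barrier. Pericytes carry few contractile filaments, whereas smooth muscle cells express a contractile program under the control of serum response factor.

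Slide 1 held the A+/G+ arrays and slide 2 the A-/G+ arrays, and for each difference given here fraction and slide cannot be told apart. The A-/G+ arrays were dimmer and less alike. The 75th percentile of their intensity was 56.6, 113 and 251 for replicates 1, 2 and 3, compared with 332 to 334 in A+/G+, and 18340 to 24730 probes were well above background by the flag of the scanner software, which is what a measured signal means below, compared with 26476 to 26655. The sort itself was checked on Atp1b2 and Slc1a3, the genes of ACSA-2 and GLAST. For Atp1b2 the log2 signal exceeded that of A-/G+ by 2.16 in A+/G+ (adjusted p = 0.00725, limma with Benjamini-Hochberg adjustment). For Slc1a3 the difference, A+/G+ minus A-/G+, was -1.19 (adjusted p = 0.0733, limma). Each of 9 astroglial genes examined had a measured signal on every array. The labels call the replicates biological and the cerebella were pooled, so p-values measure the spread between pools.

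All 9 genes had a higher normalized log2 signal on each A+/G+ array than on every A-/G+ array. Of all probes on the array, 12.7% were separated in this way and in this direction, and 24.3% in the other. With limma and an adjusted p of at most 0.05, 5 of the 9 genes were higher in A+/G+, namely Pdgfrb, Rgs5, Vtn, Anpep and Myh11, compared with 4.65% of all probes and 7.88% of genes named in RefSeq. For Myh11 no array gave a signal well above background, so that 4 genes with a measured signal remained. None of the 9 was higher in A-/G+ at this limit in limma, where 4.64% of all probes were. At an unadjusted p under 0.05, the counts were 9 toward A+/G+ and 0 in the other direction. The same counts over all 55681 probes were 5949 and 7025. When the medians also had to be at least 4-fold apart, 3 genes were called, namely Rgs5, Vtn and Anpep, compared with 1.53% of all probes in this direction and 0.399% in the other. With the methods' t-test 2 were called, Vtn and Anpep, and the share of all probes called by it is not given here. The median difference of the 9 genes was 2.18 on the log2 scale, whereas it was -0.04 over all probes, of which 38.0% had a difference above 0. With normexp the median of the 9 genes was 1.41 and that of all probes -0.02. The exact permutation test on a single gene gave p = 0.1 (two-sided) for each of the 9, the smallest that 3 arrays against 3 can give. Under the 75th percentile shift and under normexp background correction, 8 of the 9 genes passed in place of 5, and Myh11 was the gene that did not. Of all probes, 4.25% passed toward A+/G+ under the shift (30.9% toward A-/G+) and 6.31% with normexp (6.41% toward A-/G+).

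**Figure D1:**
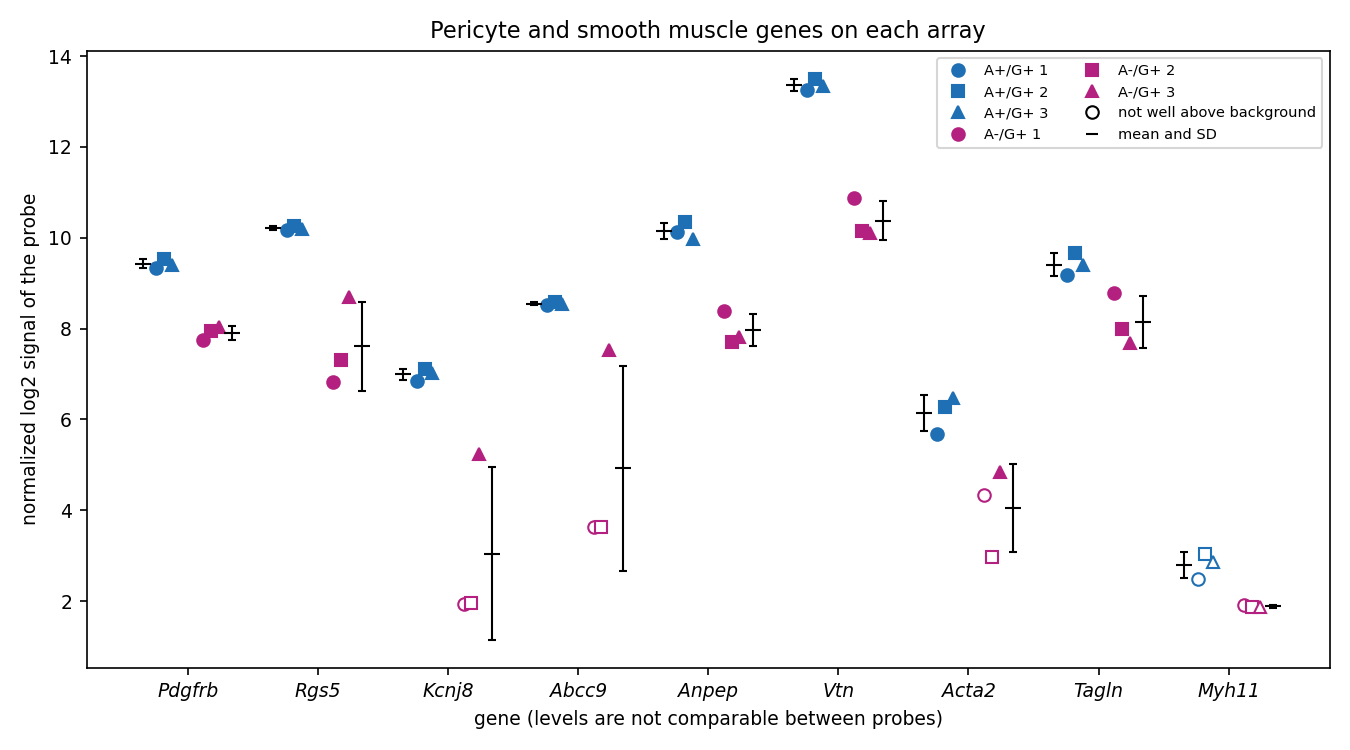
Normalized log2 signal of the probe of each gene (vertical axis) on the 3 A+/G+ arrays (blue) and the 3 A-/G+ arrays (magenta), with mean and SD of each fraction. Marker shape gives the replicate number and open markers were not well above background. Every gene shows the blue points above the magenta ones, with the closest approach in Tagln, and the widest A-/G+ spread in Abcc9 and Kcnj8.

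Pdgfrb encodes the receptor through which pericytes respond to PDGF-B. Its probe lies on chromosome 18 of mm9 from 61244606 to 61244665. In replicates 1, 2 and 3, the log2 signal was 9.34, 9.53 and 9.41 in A+/G+, and 7.74, 7.94 and 8.04 in A-/G+. The arrays within each fraction lay close together, and the gap between the fractions was wider than either spread. The means were 9.43 ± 0.10 and 7.91 ± 0.15 (SD, n = 3), a difference of 1.52 (standard error 0.10, adjusted p = 0.00483, limma) with medians 2.77-fold apart. Pdgfrb passed the test after each of the 6 arrays was left out in turn.

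Rgs5 encodes a regulator of G protein signaling that is abundant in pericytes, and its probe lies on chromosome 1 from 171623021 to 171623080. The log2 signal was 10.17, 10.26 and 10.20 in A+/G+, and 6.82, 7.32 and 8.70 in A-/G+. The A+/G+ arrays were nearly equal, whereas A-/G+ replicate 3 stood well above replicates 1 and 2. The means were 10.21 ± 0.04 and 7.61 ± 0.98 (SD, n = 3), with a difference of 2.60 (standard error 0.51, adjusted p = 0.0453, limma) and medians 7.39-fold apart. This call was lost without any single A+/G+ array and without A-/G+ replicate 1 or 2, with adjusted p-values up to 0.159, and kept without A-/G+ replicate 3 (adjusted p = 0.00614). Against A-/G+ replicate 3 alone, an alternative chosen after seeing the data, the difference was 1.51, with no spread of A-/G+ behind it. With the methods' t-test Rgs5 did not pass (adjusted p = 0.0957).

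Kcnj8 and Abcc9 encode Kir6.1 and SUR2, the pore and the regulatory subunit of the KATP channel of pericytes and vascular smooth muscle, which opens when ATP is low. The genes are neighbors, with no RefSeq gene between them, and their probes lie on chromosome 6 from 142513487 to 142513546 and from 142536920 to 142536979, with 23373 bases between. For Kcnj8, the log2 signal was 6.86, 7.10 and 7.02 in A+/G+, and 1.93, 1.97 and 5.24 in A-/G+. For Abcc9 it was 8.51, 8.59 and 8.54 in A+/G+, and 3.63, 3.62 and 7.54 in A-/G+. In A+/G+ both genes were well above background on all arrays, in A-/G+ on replicate 3 alone, so that their values on A-/G+ replicates 1 and 2 are not measured levels. The fitted differences, 3.94 for Kcnj8 (standard error 0.99, adjusted p = 0.0805, limma) and 3.62 for Abcc9 (standard error 1.17, adjusted p = 0.147), did not pass the test. Without A-/G+ replicate 3 both passed, with differences of 5.04 and 4.92 (adjusted p = 0.00328 for each, limma). The A-/G+ side of that fit holds only values that are not measured levels. It therefore gives neither the size of a difference nor the spread of A-/G+. Against A-/G+ replicate 3 alone, the array on which both were measured, the A+/G+ mean was higher by 1.75 for Kcnj8 and by 1.01 for Abcc9. With normexp background correction, which compresses signals near background, the differences were 1.41 and 1.92. The size of both differences thus changed by more than 1.5 times with the treatment of dim signal.

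Over the 6 arrays the pair gave a Pearson r of 0.993, and in the deviations of the arrays from their fraction means 0.999. Both are descriptions over arrays that share fraction and slide. Neither gene had a measured signal on A-/G+ replicates 1 and 2. The r of the deviations thus rests mainly on the contrast of these values near background with replicate 3. Their promoter windows, the 250 bases before the start of each gene in RefSeq on GRCm38.p6, are shown because the genes are neighbors. Capitals would mark a CArG box, the binding motif of serum response factor, and neither window holds one.
Kcnj8 promoter, chr6:142571615-142571864, minus strand: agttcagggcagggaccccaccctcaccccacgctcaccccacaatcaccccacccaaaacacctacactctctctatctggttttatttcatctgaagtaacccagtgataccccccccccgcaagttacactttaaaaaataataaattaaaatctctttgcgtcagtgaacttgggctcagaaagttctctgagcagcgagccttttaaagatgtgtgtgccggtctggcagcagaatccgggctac
Abcc9 promoter, chr6:142702275-142702524, minus strand: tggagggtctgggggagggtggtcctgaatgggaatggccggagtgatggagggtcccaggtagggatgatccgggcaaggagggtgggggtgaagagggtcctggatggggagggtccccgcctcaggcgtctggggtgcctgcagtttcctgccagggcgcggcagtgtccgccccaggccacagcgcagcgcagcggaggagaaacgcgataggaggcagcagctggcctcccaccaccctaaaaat
With the first 50 bases of the gene added, the 300 bases of Kcnj8 hold 1 E-box (CANNTG) and no GC box (GGGCGG). Those of Abcc9 hold 1 E-box and 1 GC box. On either strand, 72.3% of 32851 promoter windows of that length hold the E-box and 35.7% the GC box.

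The relatives of these subunits did not pass the test. Kcnj11, the pore Kir6.2 of neuronal and pancreatic KATP channels, had means 0.15 lower in A+/G+ (adjusted p = 0.797, limma), and Abcc8, the subunit SUR1, had means 0.58 higher (adjusted p = 0.587). For Kcnj11 only 1 A-/G+ array had a measured signal, so its small difference rests in part on signal near background. Abcc8 was well above background on all arrays, with log2 signals of 8.18, 7.95 and 7.70 in A+/G+ and 7.06, 6.44 and 8.58 in A-/G+, so that its fractions overlapped.

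Vtn encodes vitronectin, an adhesive glycoprotein of the extracellular matrix that pericytes secrete in the brain. Its probe covers 273 bases of chromosome 11 from 78315393 to 78315665 and so crosses an intron. Its 60 bases are shown because, among those of the 9 genes measured on all 6 arrays, this one had the largest difference.
Vtn probe: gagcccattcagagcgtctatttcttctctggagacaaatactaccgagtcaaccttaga
The log2 signal was 13.26, 13.50 and 13.33 in A+/G+, and 10.87, 10.15 and 10.11 in A-/G+. Here the A-/G+ array of replicate 1 was the highest of its fraction, and the gap between the fractions was 2.39. The means were 13.36 ± 0.12 and 10.38 ± 0.43 (SD, n = 3), with a difference of 2.98 (standard error 0.23, adjusted p = 0.00638, limma) and medians 9.05-fold apart. The 10 spots of the probe had SDs of 0.04 to 0.07 within an array. Vtn passed without each of the 6 arrays.

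Vitronectin is bound by integrins that pair the subunit of Itgav with that of Itgb3, Itgb5 or Itgb1. In A+/G+, Itgb3 was higher by 2.38 (adjusted p = 0.00313, limma) and Itgb5 by 1.34 (adjusted p = 0.0114). Itgb3 had a measured signal on 2 A-/G+ arrays, so the size of its difference rests in part on signal near background. For Itgav the difference was 0.79 and for Itgb1 0.25, neither past the test. Plaur, the urokinase receptor, which also binds vitronectin, did not pass either, with 0.07 (-0.14 under the 75th percentile shift).

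Anpep encodes aminopeptidase N (CD13), a surface enzyme that marks brain pericytes and is also found on fibroblasts. Its probe lies on chromosome 7 from 86966716 to 86966775. The log2 signal was 10.12, 10.34 and 9.98 in A+/G+, and 8.38, 7.71 and 7.82 in A-/G+, again with replicate 1 the highest of A-/G+. The means were 10.15 ± 0.18 and 7.97 ± 0.36 (SD, n = 3), a difference of 2.18 (standard error 0.21, adjusted p = 0.00977, limma) with medians 4.91-fold apart. Anpep passed without each of the 6 arrays, with the highest adjusted p of these at 0.0499. Of all 28 pairs among the 8 genes with a measured signal, Anpep and Vtn were the most alike (Pearson r = 0.997 over 6 arrays).

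Acta2 encodes smooth muscle alpha actin. Its probe lies on chromosome 19 from 34316060 to 34316119 and is spotted 10 times. The log2 signal was 5.69, 6.28 and 6.46 in A+/G+, and 4.34, 2.98 and 4.84 in A-/G+. All 10 spots were well above background on each A+/G+ array and on A-/G+ replicate 3, but none on A-/G+ replicates 1 and 2. On these 2 dim arrays the spots scattered with SDs of 1.35 and 1.01, compared with 0.07 to 0.19 on the 4 others. The difference of 2.09 (standard error 0.55, adjusted p = 0.0883, limma) did not pass the test, and it did not pass without any of the 6 arrays. It was 0.73 with normexp (adjusted p = 0.0231), 1.70 under the 75th percentile shift (adjusted p = 0.0489), and 1.30 against A-/G+ replicate 3 alone.

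The Acta2 promoter is shown because Acta2 is a textbook target of serum response factor. Capitals mark 2 matches to the CArG box, CC, then 6 bases of A or T, then GG, in which 1 of the core bases is G or C.
Acta2 promoter, chr19:34255374-34255623, minus strand: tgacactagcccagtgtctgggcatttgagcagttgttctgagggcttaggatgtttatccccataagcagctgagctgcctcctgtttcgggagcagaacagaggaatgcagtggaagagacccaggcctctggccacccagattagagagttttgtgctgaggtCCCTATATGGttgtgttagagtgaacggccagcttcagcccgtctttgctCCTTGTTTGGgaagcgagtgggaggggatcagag
The matches lie from -84 to -75 and from -34 to -25 counted from the start of the gene. A match with 1 such base occurs in 8.50% of the 32851 windows and the CArG box without one in 1.63%. Of the 6 genes with a promoter window, Rgs5, Acta2, Kcnj8, Abcc9, Vtn and Anpep, only Acta2 holds a match of either kind in these 300 bases.

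Of the other actin genes, none passed the test in either direction. Actb and Actg1, the cytoplasmic actins of all cells, had differences of -0.18 (0.08 in the table of the authors) and -0.35. Acta1, the skeletal actin, had a measured signal on 2 A+/G+ arrays and on none of A-/G+, so no difference is given for it. Actc1, the cardiac actin, had 0.56, with a measured signal on only 1 A-/G+ array. Actg2, enteric smooth muscle actin, stayed at background on all arrays. Actin genes are close in sequence, and hybridization of their transcripts to the Acta2 probe was not tested.

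Tagln encodes transgelin (SM22 alpha), an actin-binding protein of smooth muscle that is also expressed by fibroblasts, and its probe lies on chromosome 9 from 45738097 to 45738156. The log2 signal was 9.17, 9.67 and 9.39 in A+/G+, and 8.79, 7.99 and 7.68 in A-/G+. The fractions came closest here, with 0.38 between the lowest A+/G+ and the highest A-/G+ array. The means were 9.41 ± 0.25 and 8.15 ± 0.57 (SD, n = 3), and the difference of 1.26 (standard error 0.33, adjusted p = 0.0879, limma) did not pass the test. It passed without A-/G+ replicate 1, at 1.58 (adjusted p = 0.0337, limma). Tagln also passed limma under the 75th percentile shift (adjusted p = 0.0489), with normexp (0.0408) and with the filter on dim probes (0.0359). It passed in no other alternative.

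Myh11 encodes the smooth muscle myosin heavy chain, the most restricted of the contractile markers. Its probe lies on chromosome 16 from 14202190 to 14202249, and its bases are given because this gene was the single one of the 9 without a measured signal.
Myh11 probe: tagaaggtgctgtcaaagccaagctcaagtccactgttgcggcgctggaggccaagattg
The log2 signal was 2.49, 3.04 and 2.85 in A+/G+, and 1.91, 1.88 and 1.86 in A-/G+. None of these 6 values was well above background, so no fold is given. The difference passed limma (adjusted p = 0.0321), but only without A+/G+ replicate 1 among the 6 arrays left out in turn, and its direction turned to -0.37 under the 75th percentile shift, where the median of all probes was -1.02.

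**Figure D2:**
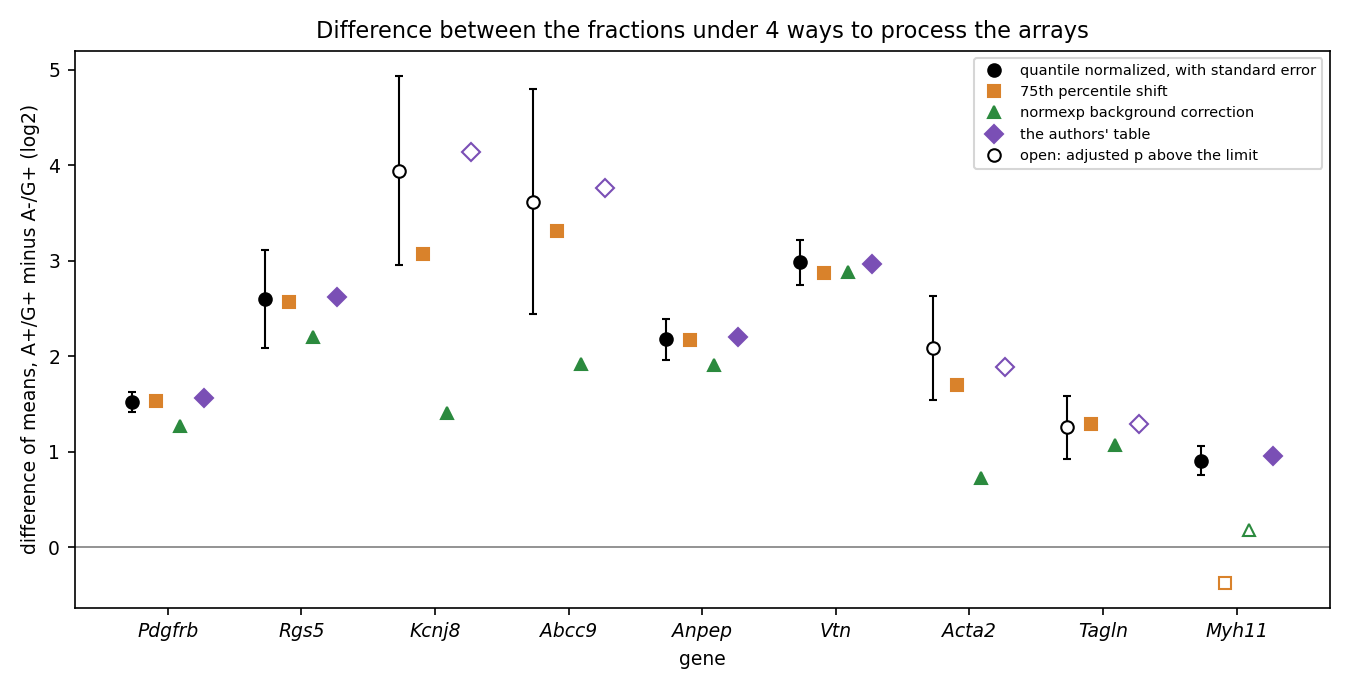
Log2 difference of the fraction means (vertical axis, A+/G+ minus A-/G+) for each of the 9 genes under 4 ways to process the arrays, with the standard error of the quantile normalized fit. Filled markers have an adjusted p of at most 0.05. Pdgfrb, Rgs5, Anpep, Vtn and Tagln kept similar sizes in all 4, Kcnj8, Abcc9 and Acta2 were smaller with normexp, and Myh11 lay below 0 under the 75th percentile shift.

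The spread within A-/G+ was larger than within A+/G+ for 8 of the 9 genes, all but Myh11, and SDs ran from 0.02 to 2.26 in A-/G+ and from 0.04 to 0.41 in A+/G+. The 9 genes did not share 1 pattern over the A-/G+ arrays. Pdgfrb, Rgs5, Kcnj8, Abcc9 and Acta2 were highest on replicate 3, the brightest array of the fraction. Vtn, Anpep, Tagln and Myh11 were highest on replicate 1, the dimmest. For Vtn the values of replicates 2 and 3 differed by 0.04, and for Myh11 all 3 lay within 0.05.

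The markers of 2 other cell types divided the A-/G+ arrays in the same 2 ways. All 15 endothelial genes examined were highest on A-/G+ replicate 3, as were 11 of 16 other pericyte genes. A measured signal on all 6 arrays was present for 8 of these 15 and 7 of these 16. The remaining genes lacked one on at least 1 A-/G+ array, so their order there rests in part on signal near background. Of 12 genes of meningeal fibroblasts, 11 were highest on replicate 1, the exception being Pdgfra. Relative to the A+/G+ mean, the median endothelial gene was at -2.22, -2.18 and -0.24 on A-/G+ replicates 1, 2 and 3, and the median fibroblast gene at -1.24, -1.97 and -2.84. The median of the 9 genes was -1.81, -2.89 and -1.51.

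The deviations of the arrays from their fraction means were also compared for single genes, as descriptions over 6 arrays. Since the spread within A+/G+ was smaller, they rest mostly on the same A-/G+ arrays and are not a second, independent view. Kcnj8, Abcc9 and Acta2 had a measured signal on only 1 A-/G+ array, so their values rest in part on signal near background. So do the values with the endothelial genes, of which 8 of 15 had a measured signal on all 6 arrays. Rgs5 had a median r of 0.95 with the endothelial genes and of -0.95 with the fibroblast genes. Kcnj8 had 0.93 and -0.91, Abcc9 0.92 and -0.91, Pdgfrb 0.69 and -0.68, and Acta2 0.64 and -0.36. For Tagln the values were -0.67 and 0.86, for Vtn -0.58 and 0.78, and for Anpep -0.47 and 0.64. Among the 28 pairs of the 8 measured genes, 16 had deviations that correlated above 0 and 12 below 0, whereas over the 6 arrays all pairs had r between 0.52 (Tagln and Abcc9) and 0.997.

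**Figure D3:**
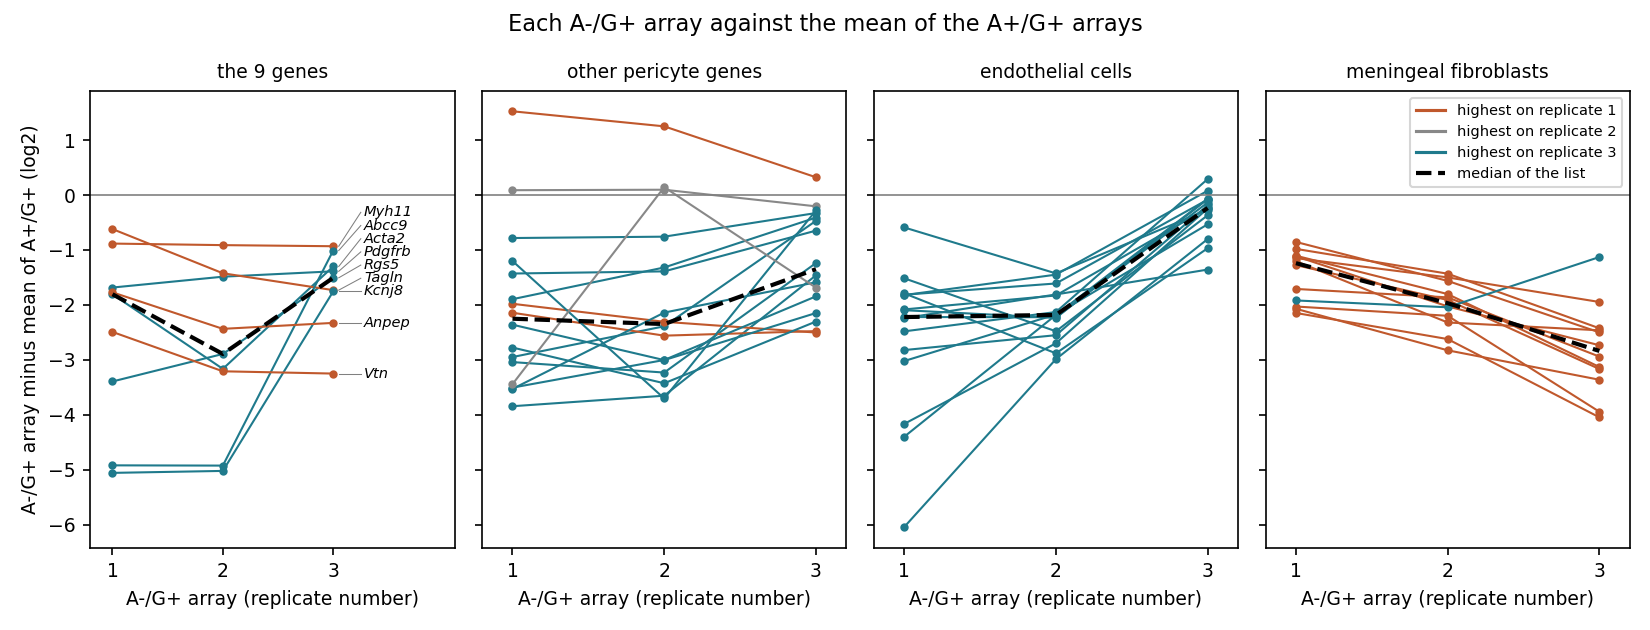
Log2 signal of each A-/G+ array (horizontal axis, replicates without an order) minus the mean of the A+/G+ arrays, for the 9 genes, other pericyte genes, endothelial genes and genes of meningeal fibroblasts. Each line is a gene, colored by the array on which it was highest, and the dashed line is the median. The median endothelial gene comes near 0 on replicate 3, with Cdh5 lowest at -1.36, fibroblast genes are lowest there apart from Pdgfra, and the 9 genes hold lines of both kinds.

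Levels of these lists were also compared. Beside the counts here and below, 7.88% of genes named in RefSeq passed toward A+/G+, and 4.64% of all probes toward A-/G+. Arrays did not overlap, with A+/G+ higher, for 12.7% of all probes. The endothelial genes, which include the adhesion molecules Pecam1 and Cdh5 and the tight junction gene Cldn5, all had a higher mean in A+/G+. The median of their differences was 1.53, and the arrays did not overlap for 5 of 15. A single gene, 1 of 15, passed the test (Cdh5, 1.80, adjusted p = 0.0182, limma), a share near that of all genes. Their summed normalized signal ran from 15439 to 22911 in A+/G+ and from 3833 to 15914 in A-/G+, so that these ranges met. The 12 fibroblast genes showed no overlap of arrays, with A+/G+ higher in each and a median of 2.00, and 6 passed, with the largest differences in Crabp2 (2.94) and Slc6a13 (2.75). Their sum was 103077 to 126103 in A+/G+ and 17645 to 49300 in A-/G+. For the 9 genes it was 13810 to 16270 in A+/G+ and 2036 to 3015 in A-/G+, of which Vtn alone made up 70.8% to 71.3% and 44.8% to 62.1%. All 12 had a measured signal on every array. The part of these cells in the values of Vtn, Anpep and Tagln, or of endothelial cells in those of Rgs5, Kcnj8 and Abcc9, was not tested.

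Other genes of pericytes, 16 in number, had a median difference of 2.10 (1.17 with normexp), and 15 were above 0. Those that passed were Atp13a5 (2.84, adjusted p = 0.0114, limma), a transporter ATPase, Heyl (2.78, adjusted p = 0.0286), a target of Notch signaling, P2ry14 (2.50), a receptor for UDP-glucose, and the transcription factors Foxc1 (2.39) and Tbx18 (2.26). Heyl and P2ry14 had a measured signal on 1 A-/G+ array, and Atp13a5 and Tbx18 on 2, so that the sizes of these differences rest in part on signal near background. None was higher in A-/G+ at the limit. Higd1b, one of the most specific pericyte genes, had the largest difference of the list, 2.99, which missed the limit (adjusted p = 0.0666). It too was highest on A-/G+ replicate 3, with 7.14, 7.33 and 9.52. Mcam (CD146) had the opposite sign, -1.03 (adjusted p = 0.150), and Notch3, the Notch receptor of mural cells, had 0.01, whose sign turned under other scalings. Higd1b, Mcam and Notch3 were singled out after their values were seen.

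Among 15 other genes of the contractile program, 5 passed, all higher in A+/G+, and the median difference was 0.55 (0.20 with normexp). These were Itga8 (2.24), an integrin subunit, Mylk (2.07), the kinase of myosin light chain, Des, the intermediate filament desmin, Myl9 (1.35), a regulatory light chain, and Tpm1 (0.37), a tropomyosin. Des had a measured signal on 2 A+/G+ arrays and on none of A-/G+, so no difference is given for it, and Mylk had one on 1 A-/G+ array. Lmod1, Actg2, Myocd and Pln, of which Myocd encodes the cofactor that turns serum response factor toward the smooth muscle program, were not well above background on any array. Srf itself had means 0.88 lower in A+/G+ (adjusted p = 0.0805), and none of the 6 genes of this factor and its cofactors passed.

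Of 17 genes of the signals between endothelial and mural cells, 6 passed. In A+/G+, Angpt2, the antagonist ligand of the endothelial receptor Tek, was higher by 2.64 (adjusted p = 0.0286, limma), and Ednra, the endothelin receptor of smooth muscle, by 2.32 (adjusted p = 0.00390). Pdgfra and Tgfbr2 were higher by 1.70 and 1.08. The ligands Pdgfc and Tgfb3 were lower in A+/G+, with differences of -1.67 (adjusted p = 0.00721) and -0.88 (adjusted p = 0.0342). Pdgfb, the ligand of Pdgfrb that endothelial cells make, had log2 signals of 8.29, 8.45 and 8.73 in A+/G+ and of 5.46, 5.82 and 8.41 in A-/G+. Its difference of 1.93 did not pass (adjusted p = 0.270), and its highest A-/G+ array was again replicate 3.

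Markers of further cell types that the fractions could hold are given with their values. Of 11 genes of microglia and macrophages, 1 passed (Tmem119, adjusted p = 0.0207), and the median was -0.15 (-0.79 under the 75th percentile shift). None of 6 choroid plexus genes (median -0.34), 5 red blood cell genes (median 1.52, with normexp 0.95) or 6 neuronal genes (median 0.70) passed, and the microglial gene Ptprc had no measured signal. Of 5 genes of oligodendrocyte precursors, which share Pdgfra and Cspg4 with mural cells and fibroblasts, 3 passed, led by Olig1 (4.43) and Olig2 (4.23). Olig2 had a measured signal on 2 A-/G+ arrays, so the size of its difference rests in part on signal near background. Of 9 astroglial genes, Gfap (3.03) and Atp1b2 were higher in A+/G+ and Aldh1l1 was lower (-0.64, adjusted p = 0.0452), and the median was 0.06 (-0.37 under the 75th percentile shift).

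**Figure D4:**
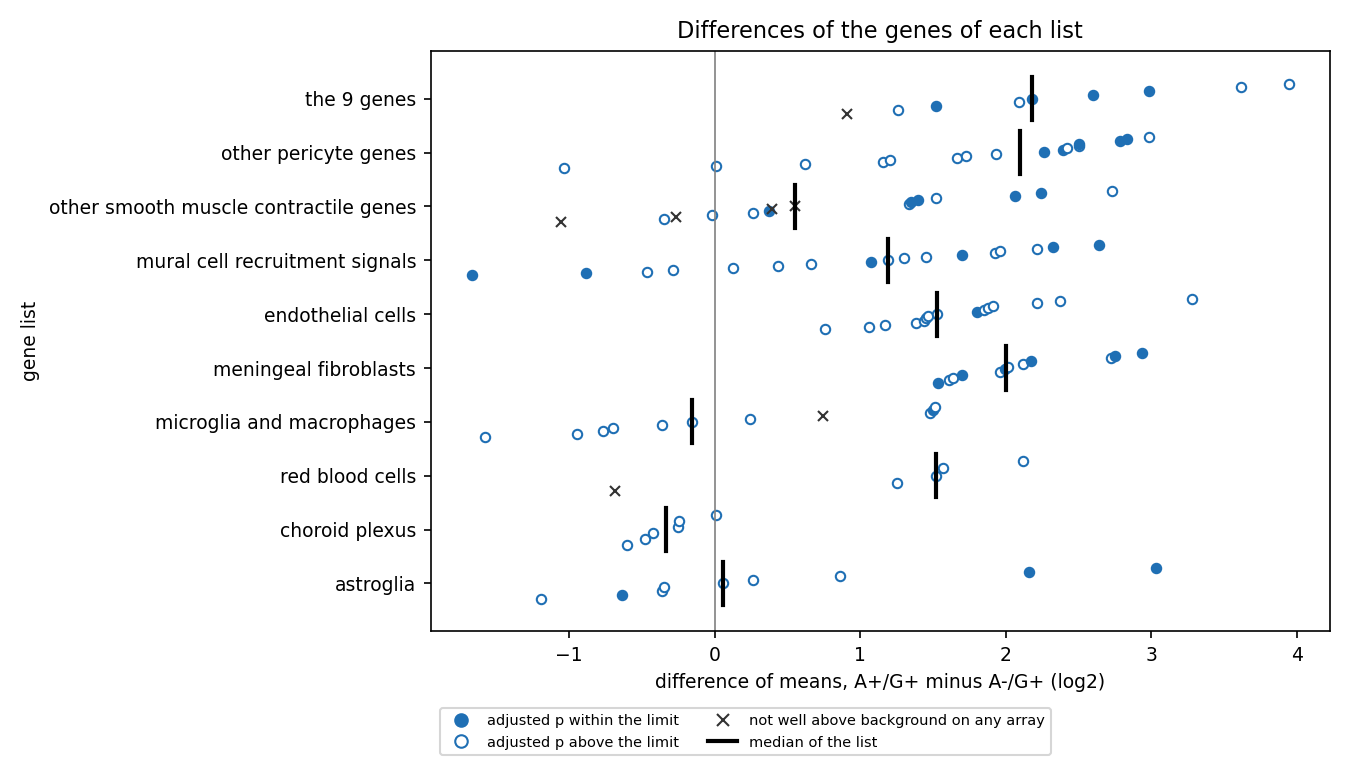
Log2 difference of the fraction means (horizontal axis, A+/G+ minus A-/G+) for each gene (point) of 10 lists, with the median of the list as a bar. Filled points have an adjusted p of at most 0.05 and crosses were not well above background on any array. The medians of the 9 genes, the other pericyte genes and the fibroblast genes lie between 2.00 and 2.18, that of the endothelial genes at 1.53, and those of microglia, choroid plexus and astroglia between -0.34 and 0.06.

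The genes most like each of the 9 over the 6 arrays were sought among 14230 genes with a signal on at least 3 arrays, leaving out Myh11. These values are descriptions, over arrays that share fraction and slide. Vtn and Anpep shared Cd248 (endosialin, a surface protein of pericytes and fibroblasts) among their 3 most alike genes (r = 0.999 and 0.998). Anpep was further closest to Emp3 and Fmod, Vtn to Svil and Hist1h2bc, and Tagln to Lima1 and C1s. Pdgfrb was closest to Wnt5b, H6pd and Cd63, and Rgs5 to Plekhf2, Emilin3 and Lnx1. Kcnj8 was closest to Slc16a12, Cox8a and Plin4, Abcc9 to Tmsb15b1, Rem1 and Atp2a3, and Acta2 to Capsl, Kcnn4 and Grina. All of these had r of at least 0.990.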

How the data were processed

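RNA of sorted cells was amplified, labeled with Cy3 and hybridized to 1-color Agilent mouse arrays. The authors deposited the intensity of each spot as given by Agilent Feature Extraction, after background subtraction within the array, and their own quantile normalized log2 table, used here as an alternative. Of 62976 spots, 59305 were not controls. Spots marked as outliers were left out, log2 intensities were quantile normalized, as the study's methods state, spots of a probe were averaged, and a gene was read from its brightest probe. limma 3.58.1 (R 4.3.3) was fitted to all 55681 probes with Benjamini-Hochberg adjustment, where the study used Student's test, and the fit was tested on simulated data. The limits of an adjusted p of 0.05 and of 4-fold medians are the study's. Quantile normalization gives the dim arrays the distribution of the bright ones, which can spread values near background. The number of arrays limits the precision.

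The genes and lists were chosen with earlier results of these data known. All 9 genes are named, and of the other lists the genes past the test with the 2 largest differences in each direction, those at background on every array, the relatives of the channel and of actin, and, where few, all that passed. Further names were added after values were seen. For each of the 9 but Myh11, the genes named as most alike are from the 3 with the highest Pearson r. A few genes that these rules name are not reported here. Alternatives were the 75th percentile shift, the authors' table, normexp (offset 50), a filter for probes well above background on at least 3 arrays, outlier spots kept, gene means over probes, the methods' t-test, trend and robust variance, a replicate block, each array left out and, chosen after seeing the data, both dimmer A-/G+ arrays left out. Positions of probes were taken from the annotation of the array, on mm9. Promoter sequences are from RefSeq on GRCm38.p6, where 6 of the 9 genes had a window.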

Additional observations from a re-analysis of the deposited data

How the results depend on the processing

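All 9 genes kept a higher mean in A+/G+ under every alternative run, except Myh11, which turned to -0.37 under the 75th percentile shift. Against 5 genes past the test, 8 passed under this shift and 8 with normexp. With the filter on dim probes 7 passed, with the methods' t-test 3 and with the replicate block 0. The counts of probes were the same 8, 8, 7, 3 and 0. The filter added Tagln, Kcnj8 and Acta2 at unchanged differences, so those of Kcnj8 and Acta2 still rest in part on signal near background. Against 3 genes called with the 4-fold limit, 5 were called under the 75th percentile shift, 4 with the filter on dim probes and 0 with the replicate block. For the t-test, the filter, the fits with 1 array left out and the 4-fold limit under the shift, the share of all probes is not given. These counts thus do not tell a change in the 9 genes from a change over the whole array. With 1 array left out, 3 to 6 genes (and 3 to 6 probes) passed, 2 to 5 were called, and 0 were higher in A-/G+. The 3 came without A+/G+ replicate 2 or 3 or A-/G+ replicate 2, and the 5 without A-/G+ replicate 3. Kcnj8 and Abcc9 were among those 5, on A-/G+ values near background alone. With both dimmer A-/G+ arrays left out, the lone A-/G+ array was assumed to vary like the A+/G+ arrays. Under the 75th percentile shift, 4.25% of all probes passed toward A+/G+ and 30.9% toward A-/G+, compared with 4.65% and 4.64%.

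Whether same-numbered samples of the 2 fractions came from the same pool is not stated. Deviations of same-numbered arrays correlated at 0.11, 0.10 and -0.04, and those of differently numbered arrays at -0.14 to 0.07. Deviations from the means of so few arrays cannot decide whether the samples were paired. With the replicate block no probe on the array passed, while 5354 and 6317 had an unadjusted p under 0.05 in the 2 directions. A slide block was not run, as each fraction lay on its own slide, and the filter on dim probes left no value for Myh11. The dim signal of A-/G+ replicates 1 and 2 limits Kcnj8, Abcc9 and Acta2. The cause of these changes was not tested.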
